A study of Mus musculus with 6 samples.

Results

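The 4 Hox clusters of the mouse genome were examined here as 12 of the 2666 bins of 1 Mb in a Hi-C contact map of mouse embryonic fibroblasts. Each cluster was taken as the bin that the selection rule names for its paralog group 9 gene and the bin on either side of it, on the mouse build mm9. Hoxa (Hoxa9) was read at chromosome 6, chr6:52000001-53000000, Hoxb (Hoxb9) at chr11:96000001-97000000, Hoxc (Hoxc9) at chr15:102000001-103000000 and Hoxd (Hoxd9) at chr2:74000001-75000000. All 12 bins passed the filter on sparse bins, which kept 2341 of the 2573 bins that held a value, and no measured value was used to choose them. The upper neighbour of Hoxc is the last bin of chromosome 15 and spans only 494974 bases.

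The study lists 6 samples in 1 group, which are fibroblasts of a 129xCast hybrid background from 2 embryos, with 3 technical replicates of each. Hi-C joins DNA ends that lie near each other in crosslinked nuclei and counts the joined pairs, and here the chromatin was cut with HindIII and ligated in dilution. The values come from 1 pooled map, and which of the libraries it holds is not stated, so there is no second group, no treatment and no replicate map, and the sources used here give neither the age of the embryos nor the direction of the cross. The name of the deposited table pairs Cast with 129, so the map was read as holding contacts between a Cast end and a 129 end, which the labels do not state. Under that reading a contact within a chromosome joins the homologs, provided that each end is assigned to the right parent. The map holds no expression, so neither the fibroblast label nor the activity of any Hox gene could be checked against marker genes.

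Hox genes encode homeodomain transcription factors that specify position along the body axis and the limbs. Mammals carry them in clusters that arose by duplication of an ancestral cluster, and the order of the genes along each cluster follows the order in which they are used in time and along the body. In embryonic stem cells the clusters are classic targets of Polycomb repression, and fibroblasts keep a Hox pattern that reflects the body site they came from. Polycomb-bound Hox loci have been described to meet in the nucleus in some cell types, which is the background to asking whether the clusters contact each other here.

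In the RefSeq annotation of GRCm38.p6, used for names and sequences only, the clusters hold 39 Hox genes of 13 paralog groups. Hoxa holds 11, Hoxb 10, Hoxc 9 and Hoxd 9, and paralog groups 4, 9 and 13 occur in all 4 clusters (n = 3 groups). The genes that follow Hoxa are Evx1, an even-skipped-type homeobox gene, and Hibadh, a mitochondrial enzyme of valine breakdown. Hoxd is preceded by Lnpk and by Evx2, the even-skipped-type homeobox gene of that cluster. Skap1, a signalling adaptor gene, follows Hoxb, whereas its paralog Skap2 precedes Hoxa. Hoxc is followed by Smug1, a uracil DNA glycosylase gene, and Cbx5, which encodes a heterochromatin protein.

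The shared origin of the clusters is also legible in the microRNAs they carry. Mature 5′ arms are shown because the same seeds recur in different clusters, with the seed (bases 2 to 8) in capitals and the rest in lower case, 5′ to 3′, from RefSeq (GRCm38.p6).
miR-196b-5p (Hoxa): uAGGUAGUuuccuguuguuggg
miR-196a-5p (Mir196a-1 in Hoxb and Mir196a-2 in Hoxc): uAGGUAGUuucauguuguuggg
miR-10a-5p (Hoxb): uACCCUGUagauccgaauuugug
miR-10b-5p (Hoxd): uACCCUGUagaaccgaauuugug
Counted from the 5′ end, miR-196b-5p differs from miR-196a-5p by C12A, and miR-10a-5p from miR-10b-5p by U12A. The Hoxb and Hoxc copies of miR-196a-5p are identical. Hoxc also carries Mir615, whose miR-615-3p has a seed that none of the others shares: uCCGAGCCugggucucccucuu. These loci lie inside the 1 Mb bins and cannot be resolved from the Hox genes in the map, so every contact value below belongs to a bin and not to a gene or microRNA.

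The map is shallow for any single pair of bins. It holds 1955524 recovered contacts between bins, with a mean of 0.684 per pair of kept bins on different chromosomes, and 52.7% of those pairs have none. Contacts of a kept bin with other chromosomes ran from 618 to 2651, with a median of 1557. The 12 Hox bins ranged from 639 in the partial bin of Hoxc to 2082 in the lower neighbour of Hoxa. The bins that hold the clusters had 1662 (Hoxa), 1300 (Hoxb), 1322 (Hoxc) and 1593 (Hoxd). Those of Hoxb and Hoxc were the less covered, with 94 of 115 bins of chromosome 11 and 62 of 90 bins of chromosome 15 above them. The expected number of contacts of a pair was the product of factors that reproduce each bin's total with other chromosomes, so these differences in coverage enter every ratio below. All intervals are exact 95% Poisson or conditional binomial intervals unless stated otherwise. They reflect counting error alone, and PCR duplicates could make them too narrow.

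The first question was whether the clusters contact each other. No excess over what their coverage predicts was detected. Across the 54 pairs of bins that join different clusters, 26 contacts were recovered where 36.2 were expected, a ratio of 0.719 (0.47 to 1.05). The same ratio in the balanced signal, the deposited value in which coverage has been evened out, was 0.789. No contact was seen in 35 of the 54 pairs, a single contact in 12 and 2 contacts in 7. Bin pairs without a contact made up 64.8%, against 52.4% expected from the fitted factors. The bins that hold the Hox genes had 3 contacts with each other where 3.85 were expected, a ratio of 0.779 (0.161 to 2.28).

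**Figure D1:**
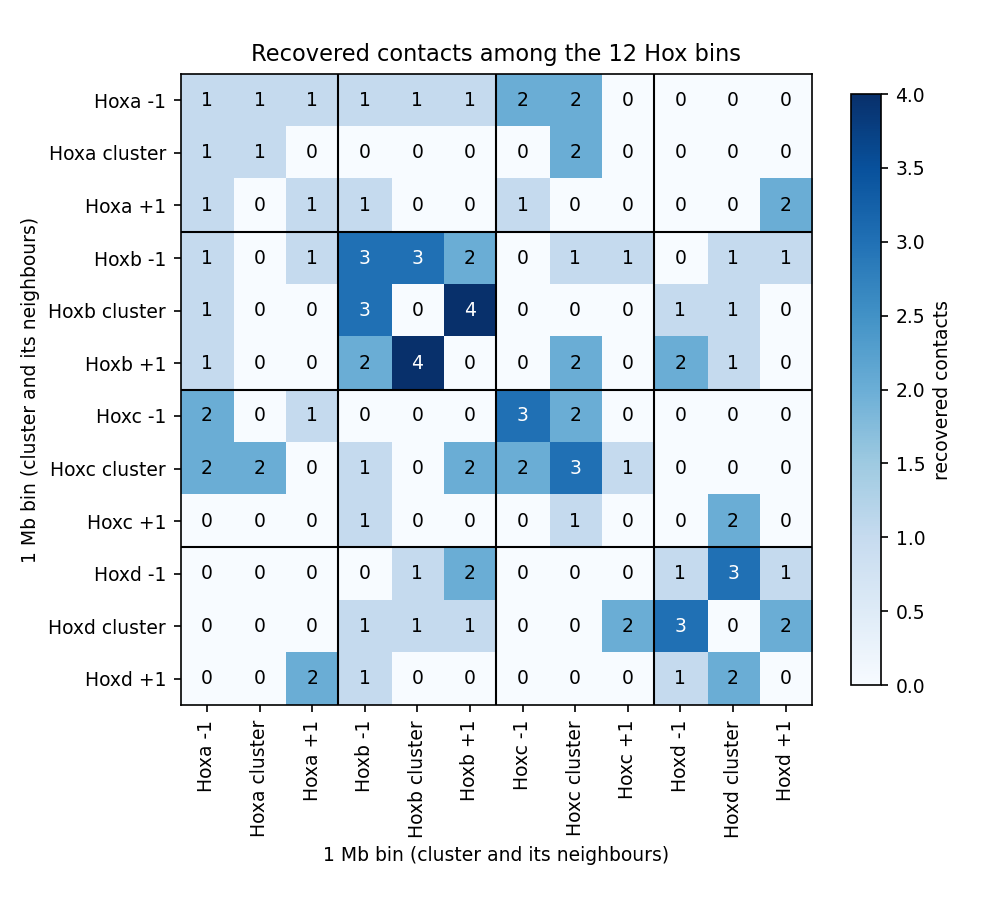
Recovered contacts between each pair of the 12 Hox bins, with bins on both axes in the order Hoxa, Hoxb, Hoxc, Hoxd and the neighbours of each cluster marked −1 and +1. Colour and numeral both give the whole number of contacts; black lines separate clusters. Blocks off the diagonal hold at most 2 contacts per pair, and the highest cell, with 4, joins the Hoxb bin to its upper neighbour.

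Each pair of clusters covers 9 pairs of bins. Hoxa and Hoxb shared 4 contacts against 6.77 expected, a ratio of 0.591 (0.161 to 1.51). Hoxa and Hoxc shared 7 against 5.54, a ratio of 1.26 (0.508 to 2.6), and 2 of the 7 joined the bins that hold the genes. Hoxb and Hoxc shared 4 against 4.12, a ratio of 0.97 (0.264 to 2.48). Those 3 values lie on both sides of 1 and every interval includes it.

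The pairs that involve Hoxd spread more widely. Hoxb and Hoxd shared 7 contacts against 6.23, a ratio of 1.12 (0.452 to 2.31), and 6 of their 9 bin pairs held a contact. Hoxc and Hoxd shared 2 against 5.1, a ratio of 0.392 (0.0475 to 1.42). Both of those contacts fell on a single bin pair, the partial bin at the end of chromosome 15 with the Hoxd bin, so the balanced value of 0.715 is well above that from counts. Hoxa and Hoxd also shared 2, against 8.38, a ratio of 0.239 (0.0289 to 0.862), and both joined the upper neighbours of the clusters. This was the only one of the 6 cluster pairs with an interval on one side of 1, and the 6 intervals were not adjusted for their number.

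Each cluster pair was then set beside all pairs of 3-bin windows on the same chromosomes. Of the 17554 windows on chromosomes 6 and 2, 97.7% had a higher balanced value than Hoxa with Hoxd, at 0.262. In recovered contacts the ratio of that cluster pair, 0.239, lies just below the central 95% of those windows (0.284 to 1.9). For the other cluster pairs the share of windows with a higher balanced value was 87.3% of 14070 for Hoxa with Hoxb. It was 43.4% of 10720 for Hoxa with Hoxc and 45% of 8400 for Hoxb with Hoxc. It was 34% of 13755 for Hoxb with Hoxd and 73.3% of 10480 for Hoxc with Hoxd. In recovered contacts all 5 ratios lie inside the central 95% of the windows on their chromosomes. For Hoxc with Hoxd, 94.8% of windows had a higher ratio in recovered contacts. These shares describe positions in this map, and neighbouring windows overlap.

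**Figure D2:**
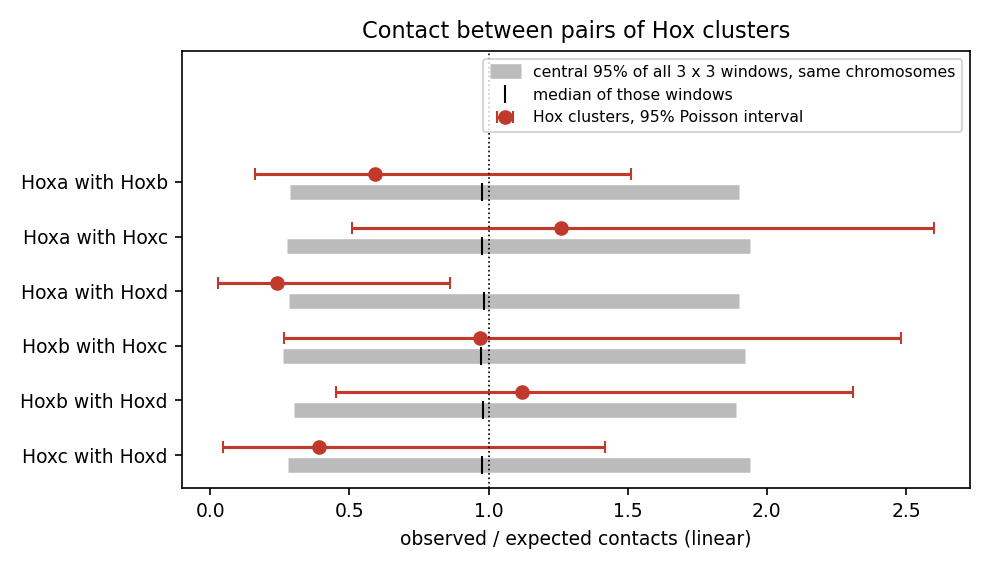
Observed over expected contacts for each pair of clusters (points, with exact 95% Poisson intervals) on a linear axis. Below each, a grey bar gives the central 95% of all pairs of 3-bin windows on the same chromosomes, and a tick their median. Points, bars and ticks are all ratios of recovered contacts. Hoxa with Hoxd has an interval that ends at 0.862, and the other intervals include 1.

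Summed over its contacts with the other clusters, Hoxa had 13 where 20.7 were expected (0.628, 0.334 to 1.07) and Hoxd had 11 where 19.7 were expected (0.558, 0.279 to 0.999). Hoxb, with 15 against 17.1 (0.876), and Hoxc, with 13 against 14.8 (0.88), were closer to 1. These sums share contacts, since the low count of Hoxa with Hoxd enters both of the first. The 3 bin pairs with the most contacts and the highest balanced values each held 2. The partial bin of Hoxc with the Hoxd bin had 2 where 0.302 were expected, and the exact 1-sided Poisson test gave p = 0.0373 and an adjusted p of 1 (Benjamini-Hochberg over all tested pairs). The upper neighbour of Hoxb with the Hoxc bin had 2 against 0.476 (exact Poisson p = 0.0829), and the Hoxa bin with the Hoxc bin had 2 against 0.649 (exact Poisson p = 0.138).

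Contacts of a bin with itself and with its neighbours came next. If the map joins Cast with 129 ends, and each end is assigned to the right parent, these are contacts of a cluster with its own homolog. The assignment of ends was not tested. Over the 12 bins, 13 same-bin contacts were recovered where 4.29 were expected, a ratio of 3.03 (1.61 to 5.18), beside 3.26 (3.14 to 3.38) over all autosomal bins. The Hox bins therefore had a same-bin value close to that of autosomes as a whole. The bins that hold the genes had 1 (Hoxa), 0 (Hoxb), 3 (Hoxc) and 0 (Hoxd) such contacts.

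Hoxc had the most, with 6 same-bin contacts in its 3 bins against 0.618 expected, a ratio of 9.7 (3.56 to 21.1). This was less unusual on its chromosome than the ratio implies, since 11 of the 80 windows of chromosome 15 had a higher one. Hoxb had 3 against 0.85 (3.53, 0.728 to 10.3), all in its lower neighbour, and Hoxa had 3 against 1.53 (1.96, 0.404 to 5.72), 1 in each bin. Hoxd had 1 against 1.29 (0.777, 0.0197 to 4.33). Without Hoxc the pooled value was 1.91 (0.767 to 3.93), so the call above 1 rests on that cluster. Same-bin contacts were uneven along the genome. No such contact was found in 42.4% of 2231 autosomal bins, whereas 26 bins had 10 or more and the highest had 24. Such bins lie close to 2 of the clusters. The bin 2 Mb above Hoxb held 15 against 0.232 expected, and the bin 2 Mb below Hoxc held 10 against 0.22. Both were singled out after their values were seen, and both lie outside the 12 bins.

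Contacts between neighbouring bins were more frequent around the clusters than along autosomes in general, mainly at Hoxb. The 8 pairs of adjacent bins within the clusters held 16 contacts where 5.48 were expected, a ratio of 2.92 (1.67 to 4.74), or 3.49 in the balanced signal. All autosomal pairs of bins 1 Mb apart had 1.47 (1.41 to 1.53), and the Hox value was 1.99 times that of the other autosomal pairs (1.14 to 3.24). The Hoxb bin had 3 contacts with its lower neighbour against 0.613 expected and 4 with its upper neighbour against 0.474. The sum of 7 against 1.09 gave a ratio of 6.44 (2.59 to 13.3), and 1 of the 105 windows of chromosome 11 had a higher one. The Hoxb bin and its upper neighbour, which held these 4, had no same-bin contact.

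The other clusters gave smaller or less certain values. Hoxd had 3 and 2 contacts between neighbours, 5 against 1.67 (3.0, 0.973 to 6.99), and 7 of 131 windows of chromosome 2 were higher. Hoxc had 2 and 1, 3 against 0.8 (3.75, 0.773 to 11), with 7 of 80 windows of chromosome 15 higher. Hoxa had 1 and 0, 1 against 1.92 (0.52, 0.0132 to 2.9), with 104 of 134 windows of chromosome 6 higher. With Hoxb left out, the remaining clusters had 1.4 times the value of other autosomal pairs (0.638 to 2.66), an interval that includes 1. With Hoxd left out the value was 1.97 times (0.981 to 3.53), beside 1.99 with all clusters. The estimate was thus nearly unchanged, but its wider interval also included 1. The value was 2.88 (1.61 to 4.76) without Hoxa and 1.89 (1.01 to 3.25) without Hoxc.

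Over all clusters no excess was detected at larger distances, but counts 2 Mb apart were too few to tell whether it ended there. Bins 2 Mb apart within the clusters had 4 contacts against 2.85 (1.41, 0.383 to 3.6), beside 1.17 over all autosomal pairs at that distance. The Hox value was 1.2 times that of the other autosomal pairs (0.326 to 3.07), an interval that includes the 1.99 seen at 1 Mb. Hoxb had 2 of these contacts against 0.581 (3.44, 0.417 to 12.4), with 11 of 105 windows of chromosome 11 higher. From 3 to 9 Mb the Hox bins had 91 against 97.7 (0.931, 0.75 to 1.14), and from 10 to 29 Mb they had 277 against 264 (1.05, 0.929 to 1.18). All autosomal pairs had 1.07 (1.05 to 1.09) in the first of these ranges and 1.05 (1.03 to 1.06) in the second. Within the second range Hoxb had 88 contacts against 67.7, a ratio of 1.3 (1.04 to 1.6), whereas the other clusters had between 0.945 and 1.0. The Hoxb interval includes the autosomal value of 1.05. Contact with the whole of its own chromosome was 0.994 for Hoxa, 1.08 for Hoxb, 0.939 for Hoxc and 1.05 for Hoxd, and each interval included 1.

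The next comparison was of the kinds of bin that each cluster contacted. Hi-C maps separate chromatin into compartments, groups of bins that prefer their own kind, and these appear as the first eigenvector of the correlation between contact profiles. That eigenvector was computed here from contacts with other chromosomes and scaled to an SD of 1 over bins. Its sign was set by chromosome 11, which is rich in genes, and not by any gene annotation, so a high score is not by itself a measure of activity. Its eigenvalue was 8.5 against 4.35 for the next, and the scores of neighbouring bins correlated with r = 0.509 over 2234 pairs.

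The Hox bins had a mean score of 1.27 ± 1.37 (SD over 12 bins), and 7 of the 12 lay in the highest-scoring 20% of all kept bins. All 3 bins of Hoxb and all 3 of Hoxa were among them, together with the Hoxc bin, while the Hoxd bin was the only one in the lowest-scoring 20%. Hoxb stood highest. Its bins scored 2.66, 3.36 and 3.58 in order along chromosome 11, and the last was the highest of that chromosome's 115 bins and was exceeded by 4 bins in the map. Without Hoxb the mean over the other 9 bins was 0.63. With no bin filter the mean over the 12 bins was 0.14.

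Hoxa formed a separate island of raised score. Its bins scored 1.56, 1.21 and 0.88, whereas the 18 other kept bins within 10 Mb had a median of −0.32 and none exceeded 0.13. Hoxb lay in a region of mixed score, where the 17 other bins within 10 Mb had a median of 0.40 and reached 3.46. Hoxc scored 0.30, 1.56 and 0.14, with its gene-bearing bin above both neighbours and a bin 3 Mb below it at 3.22. Hoxd had the opposite shape, with 0.45 and 0.52 on the sides and −1.0 in the bin that holds the genes. On chromosome 2, 133 of 150 bins scored above that bin.

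**Figure D3:**
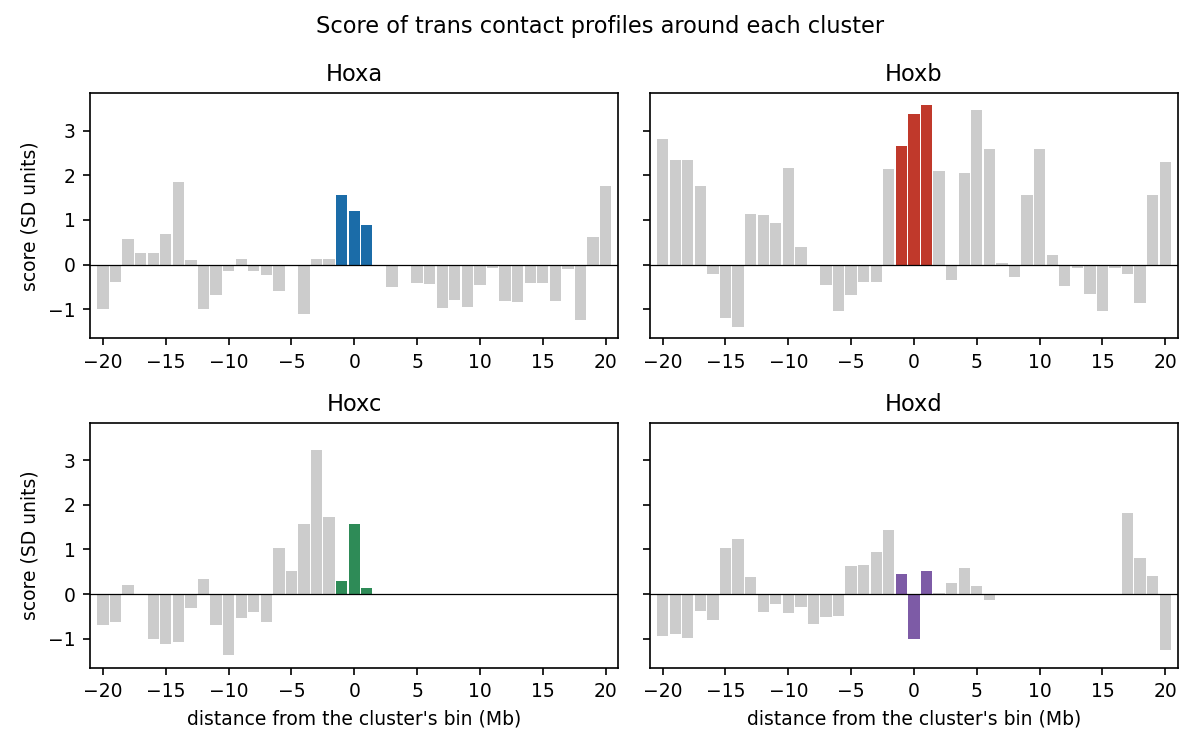
Score of each kept bin (SD units) against its distance in Mb from the bin of each cluster, with the 3 bins of the cluster coloured and other bins grey; gaps are bins that were not kept, and chromosome 15 ends at the right of Hoxc. Hoxa is an isolated peak of 1.56 to 0.88, the Hoxb bins reach 3.58, and the Hoxd bin dips to −1.0 between positive neighbours.

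Coverage moved with the score on 1 of the 4 chromosomes. Over the 115 kept bins of chromosome 11 the score and the number of contacts with other chromosomes had r = −0.42, and the Hoxb bin and its upper neighbour were poorly covered, with 1300 and 1231 contacts against a median of 1588. The part of coverage in the Hoxb score was not tested. On chromosomes 6, 15 and 2 the same r was 0.03, −0.08 and −0.13. All of these correlations are across bins of 1 map, which share libraries and partners, and are given as descriptions.

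The eigenvector was then fitted again without the 12 Hox bins, and the contacts of each cluster with the highest-scoring and lowest-scoring 20% of bins, on other chromosomes, were counted. Hoxb had 1118 contacts with the highest-scoring bins where 797 were expected (1.4, 1.32 to 1.49) and 721 with the lowest-scoring bins where 844 were expected (0.854, 0.793 to 0.919). The preference, the former ratio over the latter, was 1.64 (1.49 to 1.81). Hoxa had 1207 against 1097 (1.1, 1.04 to 1.16) and 1023 against 1134 (0.902, 0.848 to 0.959), a preference of 1.22 (1.12 to 1.33). Hoxc had 740 against 677 (1.09, 1.02 to 1.18) and 626 against 712 (0.879, 0.811 to 0.95), a preference of 1.24 (1.12 to 1.39). Hoxd lay near 1 on both sides, with 998 against 999 (0.999, 0.938 to 1.06) and 1035 against 1046 (0.989, 0.93 to 1.05), a preference of 1.01 (0.925 to 1.1).

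Hoxb, Hoxa and Hoxc thus met high-scoring bins more and low-scoring bins less than their coverage predicts, and the counts are large enough to separate the clusters from each other. The preference of Hoxb was 1.32 times that of Hoxc (1.15 to 1.52, from the Poisson errors of the log counts, as for all ratios between preferences) and 1.63 times that of Hoxd (1.43 to 1.85). That of Hoxa was 0.742 times that of Hoxb (0.655 to 0.842) and 1.21 times that of Hoxd (1.07 to 1.36). Hoxc exceeded Hoxd 1.23 times (1.07 to 1.41). Hoxa and Hoxc gave a ratio of 0.98 (0.856 to 1.12), which includes 1. The intervals of these 6 ratios were not adjusted for their number. In order of preference the clusters were therefore Hoxb, then Hoxc and Hoxa, then Hoxd, and only the neighbours Hoxc and Hoxa in that order could not be separated. Among 3-bin windows of the same chromosome, 4 of 105 had a higher preference than Hoxb, 11 of 134 than Hoxa, 15 of 80 than Hoxc and 49 of 131 than Hoxd. The windows kept their own bins in the eigenvector, which the Hox bins did not. The values changed little with partners more than 10 Mb from both chromosome ends, at 1.24 for Hoxa, 1.66 for Hoxb, 1.23 for Hoxc and 1.01 for Hoxd. They depended on the bin filter. With sparse bins kept, the preference was 1.05 for Hoxa, 1.04 for Hoxb, 0.974 for Hoxc and 0.931 for Hoxd, and the scores of neighbouring bins were then unrelated (r = −0.00805).

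Within Hoxc and Hoxd the bin with the genes differed from its neighbours in the main setting, but the difference was lost under some of the alternatives. The preference of the Hoxc bin was 1.52 (1.28 to 1.82), beside 1.15 (0.972 to 1.35) below it and 0.987 (0.763 to 1.28) above it. The Hoxd bin had 276 contacts with the highest-scoring bins against 316 and 340 with the lowest-scoring against 331, a preference of 0.85 (0.723 to 0.9997), beside 1.1 (0.948 to 1.27) and 1.08 (0.924 to 1.26) in its neighbours. Relative to the sum of its 2 neighbours, the Hoxc bin had 1.39 times the preference (1.12 to 1.73) and the Hoxd bin 0.781 times (0.646 to 0.945). Both comparisons were chosen after the values were seen. The Hoxc difference was 1.16 (0.911 to 1.48) with a stricter bin filter at 80% of the median number of partners and 1.05 (0.856 to 1.28) with no bin filter, and the Hoxd difference was 0.766 (0.577 to 1.02) with the extreme 10% in place of 20% and 1.12 (0.936 to 1.34) with no bin filter. In Hoxa the bins had 1.27, 1.27 and 1.12 and in Hoxb 1.5, 1.74 and 1.72, and the cluster bin differed from its neighbours by 1.05 times (0.88 to 1.26) and 1.09 times (0.891 to 1.33).

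**Figure D4:**
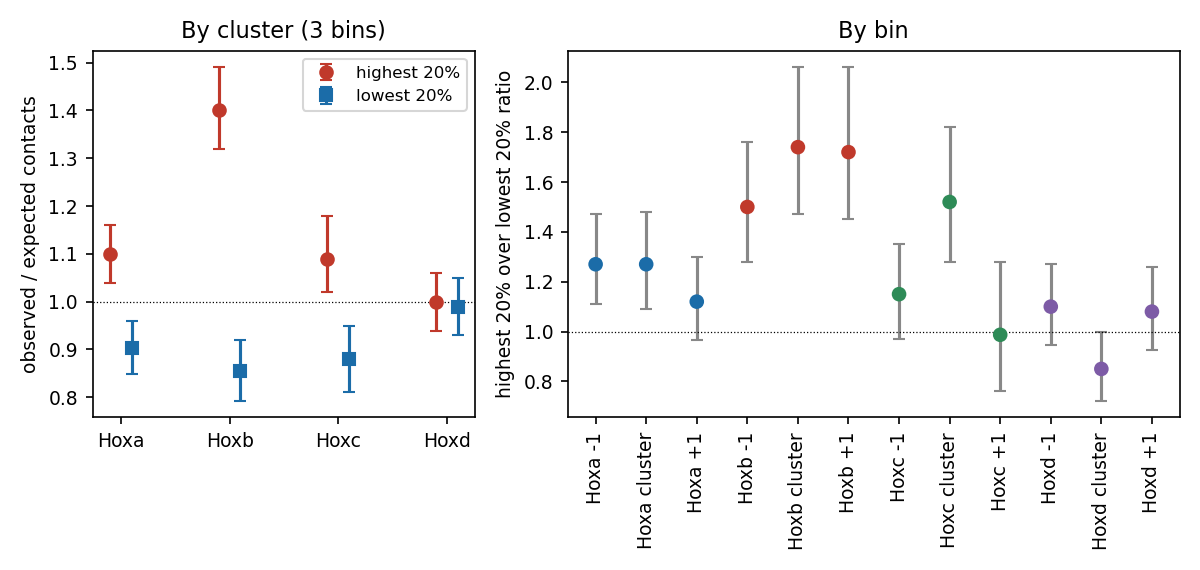
Left, observed over expected contacts of each cluster with the highest-scoring and lowest-scoring 20% of bins, on other chromosomes; right, the ratio of the former to the latter for each of the 12 bins. Bars are 95% intervals for counting error, and axes are linear and do not start at 0. Hoxb has the widest gap (1.4 against 0.854), Hoxd has 0.999 against 0.989, and the Hoxd bin itself lies at 0.85.

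The clusters showed little likeness in their individual partners. The contact profiles of 2 clusters over the 1844 kept bins on the 16 chromosomes without a cluster had a mean r of 0.007 ± 0.031 (SD over 6 pairs), with 3 of 6 above 0. Hoxa and Hoxb had the highest r at 0.060, and 1.44% of 14070 pairs of windows on their chromosomes had a higher one. The others were −0.025 for Hoxa with Hoxc, −0.004 for Hoxa with Hoxd, −0.020 for Hoxb with Hoxc, 0.017 for Hoxb with Hoxd and 0.014 for Hoxc with Hoxd. With partners summed in 374 tiles of 5 bins, Hoxa with Hoxb fell to 0.022 and Hoxb with Hoxc was the highest, at 0.042. At these depths even neighbouring bins of a cluster barely shared a profile. The mean r between neighbours was 0.057 in Hoxb, 0.014 in Hoxa, 0.003 in Hoxc and −0.016 in Hoxd, against 0.002 to 0.012 over all neighbours on their chromosomes. In Hoxd the outer bins had r = 0.069 with each other, while the bin between them had −0.011 and −0.020 with its neighbours.

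No partner locus stood out for any cluster after adjustment. Of 26547 pairs of a Hox bin with a bin on another chromosome, 805 had an unadjusted exact 1-sided Poisson p under 0.05, or 3.03%, beside a background of 2.76% over all 2594953 pairs. By cluster the share was 2.55% for Hoxa, 3.31% for Hoxb, 3.08% for Hoxc and 3.18% for Hoxd, all near the background. After Benjamini-Hochberg adjustment over all pairs, 0 of the Hox pairs passed in this exact Poisson test, against 2 pairs in the whole map (7.71e-05%), and the lowest adjusted p was 0.912. Summing the 3 bins of a cluster gave 352 of 8867 partner bins with an unadjusted p under 0.05, or 3.97%, beside 3.41% over all windows of that size. None of these passed adjustment in the exact Poisson test, against 1 in the whole map (2.12e-05%).

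The partner bins with the lowest p are given as the leading candidates at this depth and not as calls. Hoxa had 11 contacts with chrX:153000001-154000000 where 1.79 were expected, 6 from its lower neighbour, 3 from the Hoxa bin and 2 from its upper neighbour (exact Poisson p = 2.96e-06, adjusted p = 0.572). The other clusters together had 3 contacts with that bin against 4.07. Hoxb had 9 with chr16:17000001-18000000 against 1.67, of which 8 came from the Hoxb bin and its upper neighbour, 4 from each (exact Poisson p = 6.31e-05, adjusted p = 0.885). The other clusters together had 10 with it against 5.68, and 6 of these were from Hoxa. Hoxc had 8 with chr13:99000001-100000000 against 1.82, 6 of them from the Hoxc bin (exact Poisson p = 0.000611, adjusted p = 1). Hoxd had 9 with chr10:84000001-85000000 against 2.23, 5 of them from its lower neighbour (exact Poisson p = 0.000522, adjusted p = 1).

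Whole partner chromosomes were met evenly. Over the 76 combinations of a cluster and another chromosome the balanced observed over expected value had an SD of 0.0732, from 0.866 to 1.17. An unadjusted exact 2-sided Poisson p under 0.05 occurred in 2 of 76, or 2.63%, beside 5.22% over all 3-bin windows of the map. After adjustment 0 of 76 passed in the exact Poisson test, and 0% of all windows did. Both of the unadjusted calls belonged to Hoxc, with chromosome 4 (234 contacts against 200, 1.17, 1.03 to 1.33) and chromosome 1 (241 against 279, 0.863, 0.757 to 0.979), and both had an adjusted exact Poisson p of 0.93. These were also its highest and lowest partners in the balanced signal, by which partners were ranked for every cluster, with counts given beside them. Chromosome 19 was the highest partner of both Hoxa (157 against 143, 1.1, 0.933 to 1.28) and Hoxb (124 against 106, 1.17, 0.97 to 1.39), and the lowest of Hoxd (120 against 132, 0.912). Chromosome 17 was the lowest partner of Hoxa (179 against 191) and chromosome 14 the highest of Hoxd (255 against 228). The lowest of Hoxb was chromosome 18 (155 against 173, 0.896).

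**Figure D5:**
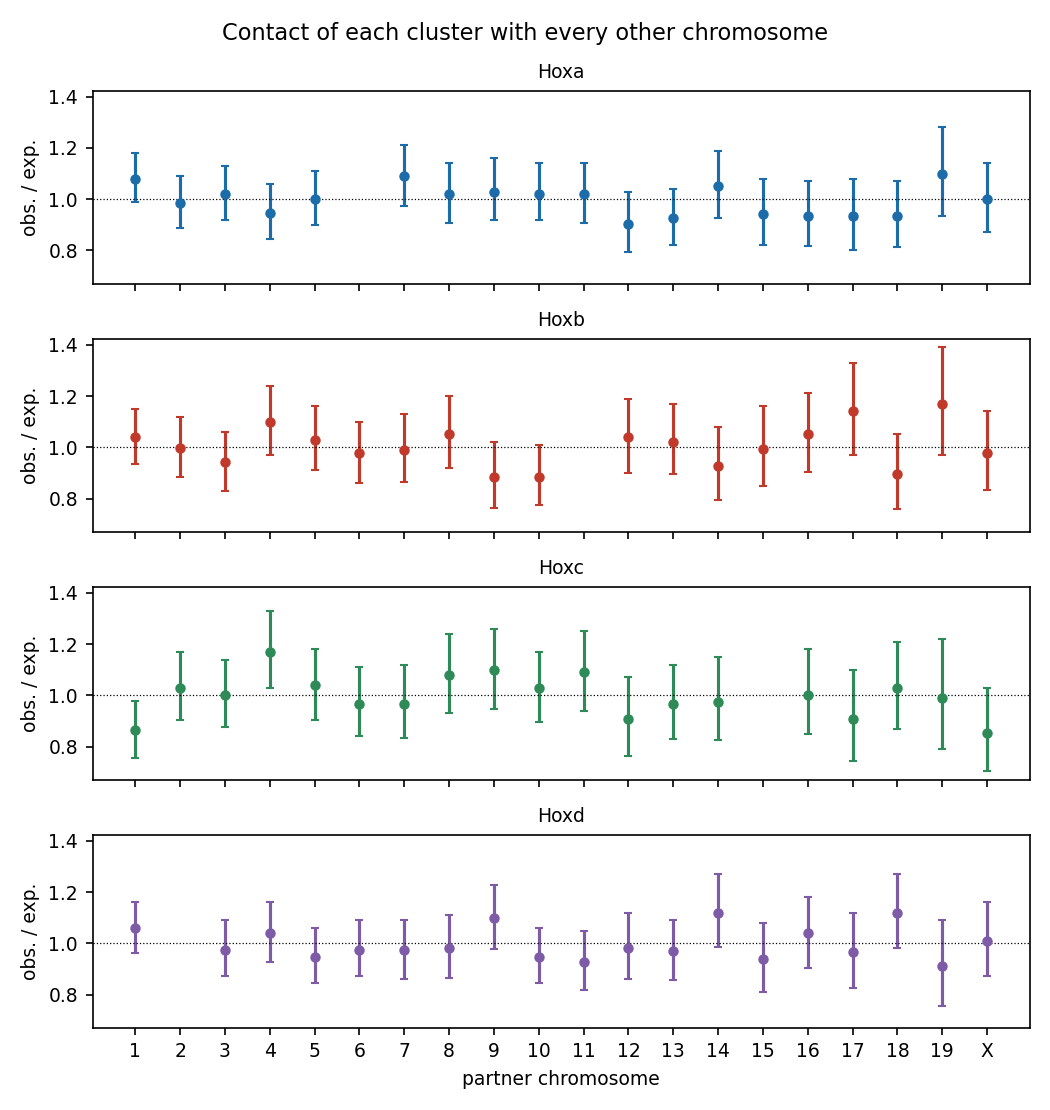
Observed over expected contacts of the 3 bins of each cluster with every other chromosome, with exact 95% Poisson intervals, on a linear axis that does not start at 0. Nearly all intervals include 1; the exceptions are Hoxc with chromosome 4 (1.17) and with chromosome 1 (0.863).

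Mouse chromosomes carry the centromere close to the low-coordinate end, so the 10 Mb at each end of other chromosomes were compared. Hoxb had fewer contacts than expected with the low-coordinate ends, 166 contacts against 211, a ratio of 0.787 (0.672 to 0.916), and 1 of the 105 windows of chromosome 11 had a lower one. Its bins had 0.675 (0.509 to 0.879), 0.842 (0.636 to 1.09) and 0.873 (0.658 to 1.14) in order, each below 1. Hoxc had 147 against 172 (0.856, 0.723 to 1.01), and 3 of 80 windows of chromosome 15 were lower. Hoxa had 298 against 283 (1.05, 0.935 to 1.18) and Hoxd 251 against 259 (0.971, 0.854 to 1.1). The pooled value of 0.932 (0.871 to 0.996) did not hold without Hoxb, at 0.975 (0.904 to 1.05), or without Hoxc, at 0.95 (0.881 to 1.02).

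At the high-coordinate ends every interval included 1. Hoxa had a ratio of 0.93 (0.847 to 1.02), Hoxb 1.02 (0.922 to 1.13), Hoxc 1.01 (0.902 to 1.13) and Hoxd 1.0 (0.914 to 1.1), and the 12 bins together had 1602 contacts against 1623 (0.987, 0.939 to 1.04). Hoxc is itself within 0.495 Mb of the high-coordinate end of chromosome 15, against 24.84 Mb for Hoxb, 96.52 Mb for Hoxa and 106.7 Mb for Hoxd.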

How the data were processed

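Hi-C contacts of 129xCast fibroblasts were analysed from the 1 contact map and its key of bin positions. The authors deposited 1 balanced signal for each pair of 1 Mb bins that had a contact, as a symmetric table. HiC-Pro 2.7.8, bedtools and mm9 are named per the submitters' processing notes; the choice of aligner, filters and pooled libraries is not given in the sources used here.

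Every deposited signal was divided by balancing factors of its bins, which were estimated from these same signals. After that step, 100% of 1365118 pairs came out as whole contacts within 0.01. Since factors and contacts share a source, this share is not an independent check of the recovery. No separate share was computed for same-bin contacts. Bins with fewer than 50% of the median 1087 partners on other chromosomes were dropped, and unlisted pairs of kept bins counted as 0. Expected contacts were products of 1 factor per bin, fitted so that every total with other chromosomes was met. Tests were exact Poisson tests with Benjamini-Hochberg adjustment over the whole map, called below 0.05. They concern counting noise, not differences between samples.

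All clusters, bins and cluster pairs were named, with the leading partner of each kind. Members, lists and comparisons were chosen with earlier results of these data known. Other target genes of Polycomb repression and the genes of Hox cofactors were not analysed here, since no mm9 annotation was used. Names and microRNA sequences came from RefSeq for GRCm38.p6, whose coordinates were not used. Alternatives changed the filter, signal, window, partners and clusters. Contact recovery, contact between clusters, the score and the calls of single pairs were tested on simulated data, and the other measures were not. Python 3.11.15, numpy 2.4.6, scipy 1.17.1, pandas 2.3.3 and matplotlib 3.10.9 were used. Coordinates are 1-based on mm9.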

Additional observations from a re-analysis of the deposited data

How the results depend on the processing

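For 15 results, 116 alternative values were computed. With 5-bin windows the same-bin ratio was 6.25 in place of 3.03. With listed pairs alone, which drops every pair without a contact, the adjacent-bin ratio in the balanced signal was 1.88 in place of 3.49 and the mean profile r was 0.191 in place of 0.007. With no bin filter the preference for high-scoring bins was 1.05 for Hoxa, 1.04 for Hoxb and 0.974 for Hoxc, and the bin over its neighbours was 1.05 for Hoxc and 1.12 for Hoxd; the cause was not tested. The mean score of the Hox bins was then 0.14 in place of 1.27, and the Hoxd preference was 0.931 in place of 1.01. The Hoxd preference was 0.85 with the cluster bin alone and 0.99 in the balanced signal. The same-bin interval reached below 1 without Hoxc (1.91, 0.767 to 3.93) and with the cluster bins alone (3.06, 0.834 to 7.83). The adjacent-bin interval in counts did so without Hoxb (2.05, 0.937 to 3.89). The Hoxc bin over its neighbours was 1.16 with the filter at 80%, which keeps 11 of the 12 Hox bins, and the Hoxd bin over its neighbours was 0.766 with the extreme 10% of bins in place of 20%. Contact between clusters ran from 0.654 to 1.06, above 1 with listed pairs alone and at 1.05 with 5-bin windows. The settings for the preference and for the bin over its neighbours were chosen after seeing the data.

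Depth limits the values between clusters. A pair of clusters is expected to share between 4.12 and 8.38 contacts, so a modest excess or deficit between clusters was not detectable. Bins of 1 Mb merge the Hox genes with their neighbours. With 1 pooled map no value has a replicate error, and whether the embryos differ was not analysed here. No paired analysis was possible because the map holds 1 group and no column per sample.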
